A study of Triticum aestivum with 12 samples.

Results

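The genes described here code for enzymes that make ADP-glucose and build the chains of starch in immature wheat grain. They were the 7 rows of the deposited gene table with chosen identifiers, of 25269 rows in all, and they comprised 2 genes for glucose-1-phosphate adenylyltransferase, 4 starch synthases and 1 isoamylase. The enzyme names came from the description, gene ontology and KEGG columns of the table, which named only TraesCS1A02G419600, TraesCS1B02G449700 and TraesCS1A02G353300 in words and the other genes by enzyme number. RNA sequencing was done on immature grain of bread wheat (Triticum aestivum), in 12 libraries, 3 for each of 4 groups. The mutant line HPm512, labelled as high in antioxidant activity, was sampled at 20 days after anthesis (HP20) and at 30 days (HP30), as was the wild-type cultivar Zhoumai22 at 20 days (WT20) and at 30 days (WT30). The labels do not name the mutated gene or say how the line was made, and nothing in them says that replicates came from separate plants, so a p-value here reflects how far these libraries scatter, and that scatter may be technical.

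Starch is built in the plastids of the endosperm, the storage tissue of the cereal grain. Glucose-1-phosphate adenylyltransferase, also called ADP-glucose pyrophosphorylase, joins glucose-1-phosphate to ATP and gives ADP-glucose, the sugar donor of starch. Starch synthases pass its glucose to the end of a growing chain, and isoamylase removes misplaced branches as amylopectin takes its ordered form. Bread wheat carries an A, a B and a D genome, so most genes have 3 near-identical copies, called homoeologues, on matching chromosomes. Copies were matched here by their enzyme entry and by like position on the chromosomes, and no sequence was compared. Because copies share sequence, the way that reads were divided between them is uncertain, and the table covers coding genes of 1A, 1B and part of 1D, so copies elsewhere were not analysed here.

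Library totals were 59.3 M to 73.6 M reads, of which the table held 9244968 to 15187939 per library, and the 7 genes had 39 to 42134 reads per library. Levels are given as FPKM, fragments scaled to transcript length and to the library total, so that levels can be compared between genes. Fold changes are log2 values from edgeR's quasi-likelihood test on counts with TMM scaling, which sets the bulk of genes near 0, and a gene was called at an adjusted p under 0.05 over the 5723 genes tested. All 7 genes were among those tested, and they were chosen with earlier results of these data known. A count of calls among them beside the share over all genes is thus no test of enrichment. The summed FPKM of 16 starchy endosperm genes (gliadins, globulins and thionins) was 14396 to 24225 in HP20, 29852 to 31111 in WT20, 21644 to 25537 in HP30 and 4053 to 4171 in WT30, with 0 of them at 0 throughout. In wild type 6 embryo genes summed to 51.2 to 75.6 FPKM at 20 days and to 2782 to 2956 at 30 days. The embryo sums in the mutant were 26.4 to 136 at 20 days and 1370 to 2539 at 30 days. The 11 chlorophyll a-b binding proteins of green pericarp, 2 of them at 0 throughout, summed to 4.02 to 8.11 in HP20, 8.62 to 11.4 in WT20, 0.801 to 1.69 in HP30 and 0.0480 to 0.408 in WT30. At 30 days the pericarp sum was lower and the embryo sum higher in every library of both cultivars than at 20 days, while the endosperm sum was lower in wild type and its ranges overlapped in the mutant. The part of these tissues in the results was not tested. In such bulk samples fewer cells of a type and less RNA per cell cannot be told apart.

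The adenylyltransferase genes were by far the most abundant of the 7, with 88.8% to 92.7% of the summed FPKM of the set in each library. TraesCS1A02G419600 (1A, 576370933 to 576375876, minus strand) stood at 128, 104 and 147 FPKM in HP20 replicates 1, 2 and 3, and at 172, 173 and 159 in WT20. At 30 days it was at 77.9, 91.4 and 76.8 in HP30 and at 67.2, 64.2 and 61.7 in WT30. Every mutant library thus lay below every wild-type library at 20 days and above every wild-type library at 30 days. The means were 126 ± 21.5 against 168 ± 8.29 FPKM and then 82.0 ± 8.13 against 64.4 ± 2.75 (SD, n = 3).

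TraesCS1B02G449700 (1B, 668128722 to 668133731, minus strand), the second adenylyltransferase, was at 109, 101 and 144 FPKM in HP20 and at 281, 159 and 140 in WT20. The high value of WT20 replicate 1 was not shared by the 1A copy, which stood at 172 in that library. At 30 days it was at 45.5, 46.7 and 41.5 in HP30 and at 42.3, 42.6 and 27.0 in WT30, so the groups overlapped at both times. The means were 118 ± 23.0 in HP20, 193 ± 76.5 in WT20, 44.6 ± 2.73 in HP30 and 37.3 ± 8.89 in WT30.

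A group of 3 starch synthases shared the gene ontology term of starch binding and lay at like positions on 1A, 1B and 1D. TraesCS1A02G091500 (1A, 84002521 to 84014688, plus strand) was the most abundant, at 9.35, 8.21 and 13.3 FPKM in HP20 and 13.7, 13.8 and 11.8 in WT20. It was at 4.18, 4.69 and 4.53 in HP30 and at 1.4, 1.5 and 1.52 in WT30. The cultivars overlapped at 20 days and were well apart at 30 days, with the mutant on top.

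TraesCS1D02G100100 (1D, 87756557 to 87767085, plus strand) came next, at 6.37, 6.24 and 9.45 FPKM in HP20 and 9.62, 9.9996 and 8.22 in WT20, then 1.75, 2.03 and 2.35 in HP30 and 1.11, 0.985 and 1.28 in WT30. The order of the groups was that of the 1A copy. TraesCS1B02G119300 (1B, 141283445 to 141296283, plus strand) was the lowest, at 1.82, 1.85 and 2.21 in HP20 and 3.4, 3.15 and 2.81 in WT20. It was at 0.597, 0.860 and 0.949 in HP30 and at 0.109, 0.0888 and 0.130 in WT30, where it rested on 45, 39 and 56 reads. Its groups overlapped in none of the comparisons.

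The fourth starch synthase, TraesCS1A02G353300 (1A, 536958431 to 536965909, minus strand), is described as chloroplastic or amyloplastic. The amyloplast is the starch-storing plastid. TraesCS1A02G353300 was at 3.93, 5.03 and 2.50 FPKM in HP20 and 2.07, 2.2 and 2.33 in WT20. At 30 days it was at 1.54, 0.926 and 1.47 in HP30 and 4.30, 4.30 and 4.86 in WT30. The mutant libraries lay above wild type at 20 days and below it at 30 days, and WT30 was the highest group on average.

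The isoamylase TraesCS1A02G247100 (1A, 438365795 to 438368421, minus strand), annotated to amylopectin synthesis, was at 3.86, 4.55 and 5.11 FPKM in HP20 and 8.12, 8.75 and 7.10 in WT20. It was at 2.83, 2.30 and 2.09 in HP30 and 3.47, 3.03 and 3.27 in WT30. By FPKM it was lower in the mutant in every library at both times.

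**Figure D1:**
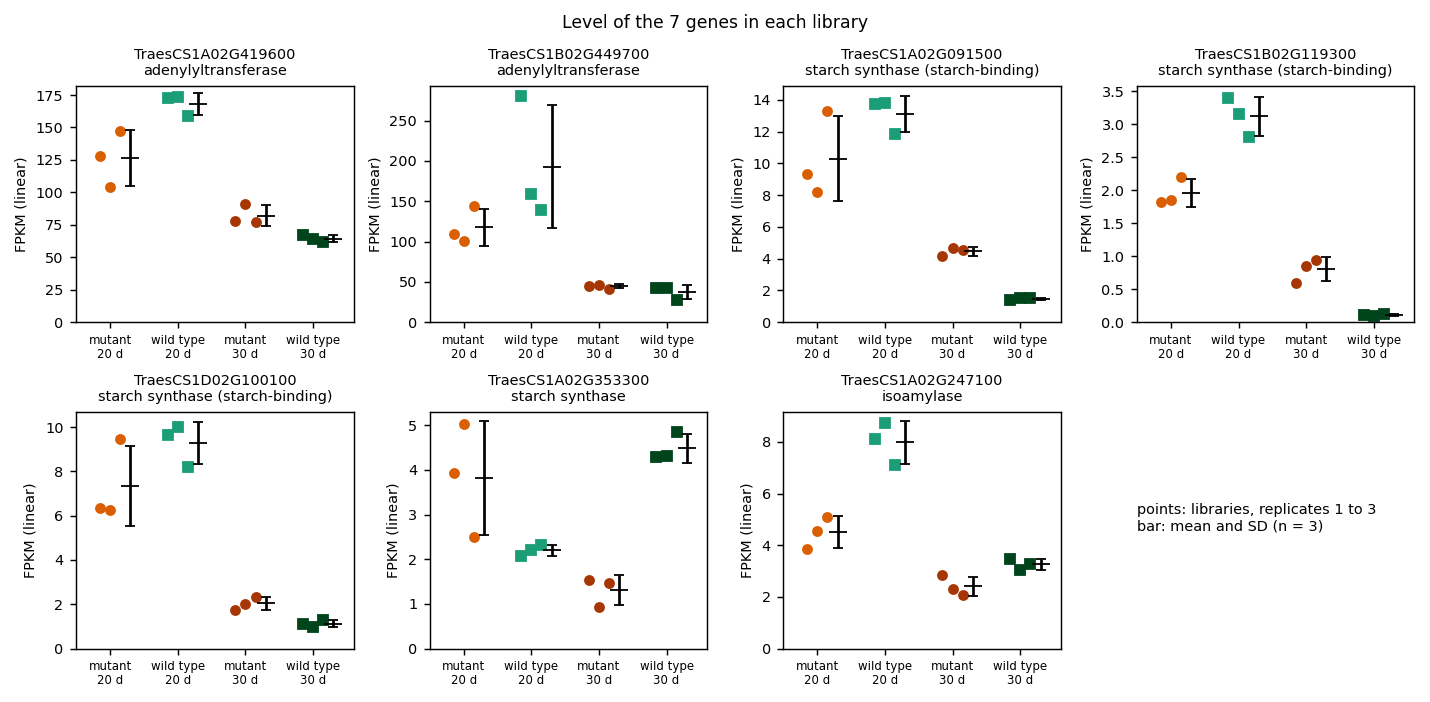
FPKM on a linear axis for the 7 genes, with a point per library in the order of replicates 1 to 3 and a bar for the mean and SD (n = 3); circles are the mutant and squares wild type. The 1A, 1B and 1D starch synthases with starch binding lie lowest in wild type at 30 days, where TraesCS1A02G353300 is at 4.30 to 4.86, and TraesCS1B02G449700 has 1 wild-type library at 281.

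Ordered by mean level within a group, TraesCS1A02G419600 and TraesCS1B02G449700 came first in each of the 4 groups. At 20 days the 1A copy was above the 1B copy in each HP20 library, by small log2 ratios of 0.23, 0.05 and 0.03, and in WT20 replicates 2 and 3. The 1B copy had the higher mean in WT20 only through replicate 1, and the ranges of the copies overlapped in HP20. At 30 days the 1A copy was above the 1B copy in every library of both cultivars. Among the lower genes, TraesCS1A02G091500 led in HP20, WT20 and HP30, with TraesCS1D02G100100 after it at 20 days, and in WT30 it was below TraesCS1A02G353300 and the isoamylase.

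At 20 days the question was which transcripts differed between the grains of the cultivars, and 3 of the 7 genes fell in the mutant and 0 rose. Of all genes tested 2.29% were called, 1.87% lower and 0.419% higher, with a median log2 fold change of 0.011, against a median of -0.70 for the 7. The isoamylase TraesCS1A02G247100 had the largest fall, with a log2 fold change of -1.13 (SE 0.14, adjusted p = 0.00388). TraesCS1B02G119300 fell by 0.97 on the log2 scale (SE 0.18, adjusted p = 0.0252). TraesCS1A02G419600 fell by 0.70 (SE 0.16, adjusted p = 0.0405).

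The other 4 genes did not pass at 20 days. TraesCS1B02G449700 was at -1.01 (SE 0.28, adjusted p = 0.0744), TraesCS1A02G091500 at -0.64 and TraesCS1D02G100100 at -0.62, while TraesCS1A02G353300 was at 0.47 (adjusted p = 0.173). The calls depended on the scaling. TraesCS1A02G353300 was called higher by edgeR with library totals alone (0.798, adjusted p = 0.0213) and with equal FPKM totals (adjusted p = 0.00261). Both limma fits also called it higher. With equal FPKM totals, which put the median of all genes at 0.694, TraesCS1A02G419600 (-0.069) and TraesCS1B02G119300 (-0.32) were not called. In 4 of the 7 genes the FPKM of the groups did not overlap, as in 42.7% of all genes tested. HP20 replicate 3 was the highest mutant library for 6 of the 7 genes and the lowest for TraesCS1A02G353300, and it also had the highest endosperm sum (24225) of its group. Without it, all 7 genes were called, 6 of them lower and TraesCS1A02G353300 higher (0.66), and calls over all genes went from 131 to 414. Without HP20 replicate 1 or 2 or WT20 replicate 1 or 2, 1 of the 7, the isoamylase, was called, among 11, 13, 45 and 12 calls over all genes. With WT20 replicate 3, HP30 replicate 3 or WT30 replicate 1 or 2 left out, 2 of the 7 were called and TraesCS1A02G419600 was not, among 39 to 79 calls over all genes. A fit of the 6 libraries of this age alone by edgeR called 0 of the 7 (7 had an unadjusted p under 0.05) and 2 of all genes. Ribosomal RNA was at 972 and 1023 RPM (reads scaled to the library total) in WT20 replicates 3 and 2 and at 1257 in WT30 replicate 3, against 377 to 533 in the other libraries. Without these 3 libraries edgeR called 0 of the 7 (6 had an unadjusted p under 0.05) and 0 of all 5723 genes, with values of -1.19 for the isoamylase and -1.14 for TraesCS1B02G119300, from a single wild-type library at 20 days that is assumed to vary like the other groups.

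At 30 days 4 of the 7 genes were called higher in the mutant than in wild type and 1 lower, with 22.9% of all genes called (13.6% higher and 9.3% lower). TraesCS1A02G419600 and TraesCS1B02G119300 were called in opposite directions at the 2 ages. The median of the 7 was 0.82, against -0.034 for all genes tested. The rises were those of the starch-binding synthases and of 1 adenylyltransferase. TraesCS1B02G119300 rose by 3.34 (SE 0.22, adjusted p = 5.47e-07), TraesCS1A02G091500 by 2.07 (SE 0.19, adjusted p = 3.84e-06) and TraesCS1D02G100100 by 1.34 (SE 0.20, adjusted p = 0.00029). TraesCS1A02G419600 rose by 0.82 (SE 0.16, adjusted p = 0.00219).

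The starch synthase TraesCS1A02G353300 went the other way at 30 days, with a log2 fold change of -1.30 (SE 0.19, adjusted p = 0.000305). The mutant mean was 1.31 ± 0.337 FPKM against 4.48 ± 0.321 in wild type. TraesCS1B02G449700 was at 0.72 (adjusted p = 0.0771, and 0.0302 without WT20 replicate 1) and the isoamylase at 0.03 (adjusted p = 0.902). The FPKM of the groups did not overlap in 6 of the 7 genes, as in 63.2% of all genes tested. For the isoamylase the scales differed: its FPKM was 2.41 ± 0.382 in HP30 and 3.26 ± 0.217 in WT30, a ratio of 0.739, and scaling by library totals alone gave a log2 fold change of -0.44 (adjusted p = 0.0181). Such scaling by totals put the median of all genes at -0.51 at this time, and rescaling libraries to equal FPKM totals put it at -1.14. With equal FPKM totals the call of TraesCS1D02G100100 ended (0.23), that of TraesCS1A02G419600 turned to -0.29 and was not called, and that of the isoamylase turned to -1.06 and was called lower. Such a scaling moves all genes of a comparison by nearly the same amount, so each value is to be read against that median.

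**Figure D2:**
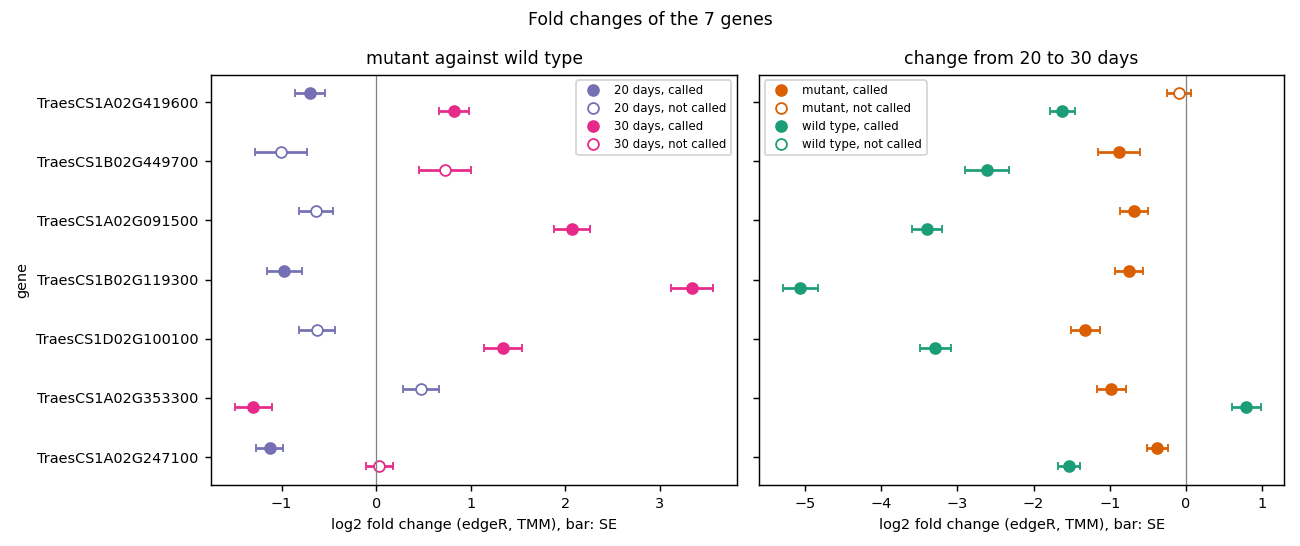
Log2 fold changes from edgeR with TMM scaling (bars: SE) for mutant against wild type on the left and for 30 against 20 days on the right; filled points passed an adjusted p under 0.05 and open points did not. The cultivar values of the starch-binding synthases lie at -0.97 to -0.62 at 20 days and at 1.34 to 3.34 at 30 days, and TraesCS1A02G353300 lies on the other side of 0 at each time.

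Between 20 and 30 days, 6 of the 7 genes fell in wild type and 1 rose, in a comparison that called 63.7% of all genes (31.8% higher and 31.9% lower). The copies with starch binding fell most. TraesCS1B02G119300 fell by 5.06 on the log2 scale (SE 0.23, adjusted p = 2.72e-09), from 3.12 ± 0.298 to 0.109 ± 0.0208 FPKM. TraesCS1A02G091500 fell by 3.39 (13.1 ± 1.12 to 1.47 ± 0.0630 FPKM) and TraesCS1D02G100100 by 3.29 (9.28 ± 0.940 to 1.12 ± 0.147 FPKM).

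The adenylyltransferase genes and the isoamylase fell less in wild type: TraesCS1B02G449700 by 2.62, TraesCS1A02G419600 by 1.63 and TraesCS1A02G247100 by 1.54. TraesCS1A02G353300 rose by 0.79 (SE 0.19, adjusted p = 0.00249), from 2.2 ± 0.129 to 4.48 ± 0.321 FPKM. The FPKM of the ages did not overlap in any of the 7 genes, against 72.4% of all genes tested. All 7 of these calls were made with each library left out in turn. Without the 3 libraries rich in ribosomal RNA, the rise of TraesCS1A02G353300 was 0.76 with an adjusted p of 0.0834.

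In the mutant 6 of the 7 genes also fell between 20 and 30 days and 0 rose, with 57.8% of all genes called (29.9% higher and 27.9% lower). TraesCS1D02G100100 fell by 1.32 (SE 0.19, adjusted p = 6.5e-05), TraesCS1B02G119300 by 0.75 and TraesCS1A02G091500 by 0.69. TraesCS1A02G353300, which rose in wild type, fell by 0.98 in the mutant (SE 0.19, adjusted p = 0.000704). TraesCS1B02G449700 fell by 0.88 and the isoamylase by 0.38 (adjusted p = 0.0371). The FPKM of the ages did not overlap in any of the 7 genes in the mutant, against 65.6% of all genes tested. Without HP20 replicate 3 the calls of TraesCS1B02G449700 and the isoamylase were lost, at -0.64 and -0.21, and without HP30 replicate 3 that of the isoamylase, at -0.35.

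TraesCS1A02G419600 did not pass in the mutant over time (-0.10, SE 0.16, adjusted p = 0.617), although its FPKM dropped from 126 to 82.0 and the groups did not overlap. With library totals alone, where the median of all genes in this comparison was -0.46, it was called lower at -0.62.

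The change with time differed between the cultivars for all 7 genes by edgeR's interaction test, which called 24.0% of all genes (13.1% higher and 10.9% lower). Of 13 other starch enzyme genes tested, it called 3. Positive values mean that the mutant kept more of its 20-day level than wild type. TraesCS1B02G119300 gave 4.31 (SE 0.29, adjusted p = 7.17e-07), TraesCS1A02G091500 2.71 (SE 0.26) and TraesCS1D02G100100 1.97 (SE 0.27). TraesCS1B02G449700 gave 1.73 (SE 0.39, adjusted p = 0.006), TraesCS1A02G419600 1.53 (SE 0.22) and the isoamylase 1.16 (SE 0.20, adjusted p = 0.00106). TraesCS1A02G353300 gave -1.77 (SE 0.27, adjusted p = 0.000434). These 7 calls were made with each library left out in turn. With equal FPKM totals, which put the median interaction of all genes at -1.81, TraesCS1A02G419600, TraesCS1B02G449700 and the isoamylase turned to -0.22, -0.012 and -0.60, of which the last was a call in the opposite direction (adjusted p = 0.0378), and TraesCS1D02G100100 at 0.22 was not called. The interaction of the isoamylase was also not called with library totals alone (0.39, adjusted p = 0.0985) or by limma (0.38, adjusted p = 0.0627 with a pseudocount of 1, and 0.39, adjusted p = 0.123, with 0.1).

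Shares and ratios of FPKM within a library do not depend on how libraries are scaled. The 1A, 1B and 1D copies of the starch-binding synthase held 51.5% ± 0.284, 12.2% ± 0.521 and 36.3% ± 0.642 of their summed FPKM in WT20 (SD, n = 3). In WT30 the 1B share was down to 4.02% ± 0.516, with 4.16%, 3.45% and 4.45% in replicates 1 to 3. In the mutant the 1B share was 10.2% ± 1.27 at 20 days and 10.9% ± 1.54 at 30 days, so WT30 alone stood low, with all 3 of its libraries below the other 9.

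The 1D copy gave a different picture. Its share was 37.5% ± 1.03 in HP20, 27.9% ± 1.84 in HP30 and 41.4% ± 2.81 in WT30, and the 3 HP30 libraries, at 26.9%, 26.8% and 30.0%, were below the other 9. The 1A share was 52.3% ± 1.72 in HP20, 61.2% ± 3.11 in HP30 and 54.6% ± 3.32 in WT30.

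Each of these shares differed among the 4 groups in a permutation test with 100000 resamples, adjusted over 14 shares and ratios (adjusted p = 0.0211 for 1A, 0.0068 for 1B and 0.00147 for 1D). Between 2 groups of 3, where 0.1 is the smallest p that a 2-sided exact permutation test can give, the 1B and 1D shares reached it for mutant against wild type at 30 days (6.85 percentage points higher and 13.5 lower in the mutant) and the 1A share did not (exact p = 0.2). At 20 days the 1B share reached it too, in the opposite direction (-2.04 points in the mutant), and the 1A and 1D shares did not (exact p = 0.4 and 0.2). Read counts in place of FPKM moved the spread of the 1B share over the groups from 8.21 to 8.64 percentage points.

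**Figure D3:**
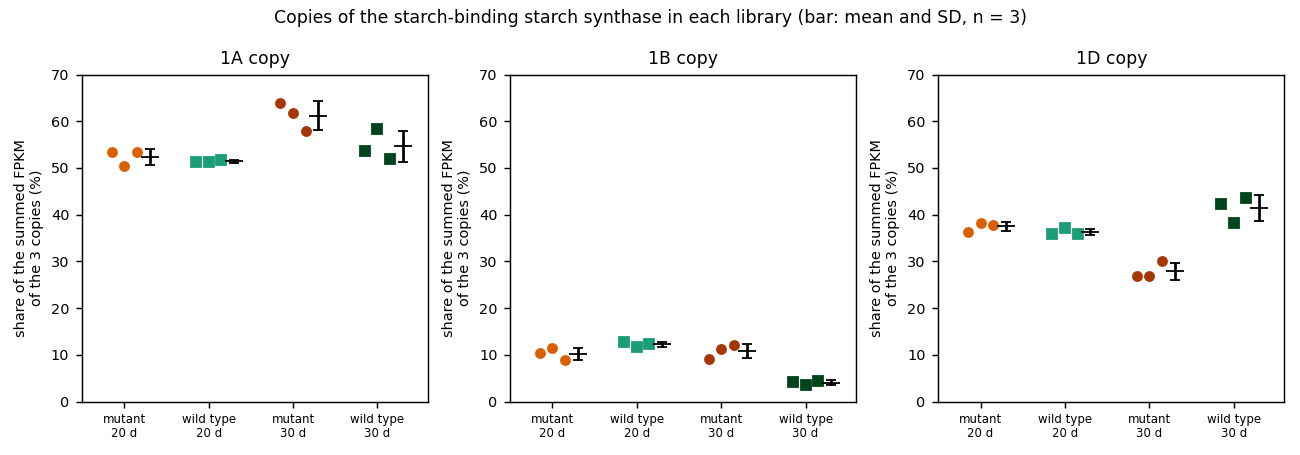
Share of each copy in the summed FPKM of TraesCS1A02G091500, TraesCS1B02G119300 and TraesCS1D02G100100 in percent, with a point per library and a bar for the mean and SD (n = 3). The 1B share is 3.45% to 4.45% in wild type at 30 days against 8.84% to 12.7% elsewhere, and the 1D share is lowest in the mutant at 30 days.

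The adenylyltransferase copies shifted with age in both cultivars. The log2 ratio of the 1A to the 1B copy was 0.10 ± 0.11 in HP20 and -0.13 ± 0.50 in WT20, and 0.88 ± 0.10 in HP30 and 0.82 ± 0.33 in WT30 (permutation test over the 4 groups, adjusted p = 0.0107). The wide spread in WT20 came from replicate 1, at -0.70 against 0.13 and 0.18. Between cultivars the ratio did not differ beyond its spread at either time (2-sided exact permutation p = 0.8 and 0.9).

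Ratios between enzymes set the groups apart more widely. The log2 ratio of TraesCS1A02G353300 to the summed starch-binding synthases was -2.39 ± 0.84 in HP20, -3.54 ± 0.21 in WT20 and -2.51 ± 0.48 in HP30, and it was 0.73 ± 0.01 in WT30 (adjusted p = 0.00623). TraesCS1A02G353300 thus exceeded the sum of the 3 in every WT30 library, at 0.71, 0.74 and 0.73, and in 0 of the other libraries. The ratio of the starch-binding synthases to the adenylyltransferase sum was -3.65 ± 0.11 in HP20, -3.80 ± 0.24 in WT20, -4.12 ± 0.17 in HP30 and -5.23 ± 0.26 in WT30 (adjusted p = 0.00427), so the synthases fell more than the adenylyltransferase genes with age in wild type.

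The isoamylase did the reverse in wild type. Its log2 ratio to the adenylyltransferase sum was -5.48 ± 0.29 in WT20 and -4.96 ± 0.19 in WT30, against -5.76 ± 0.23 in HP20 and -5.73 ± 0.25 in HP30 (adjusted p = 0.0245). This call was lost without WT30 replicate 1 (adjusted p = 0.0554) or 3 (0.0762) in the same permutation test.

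**Figure D4:**
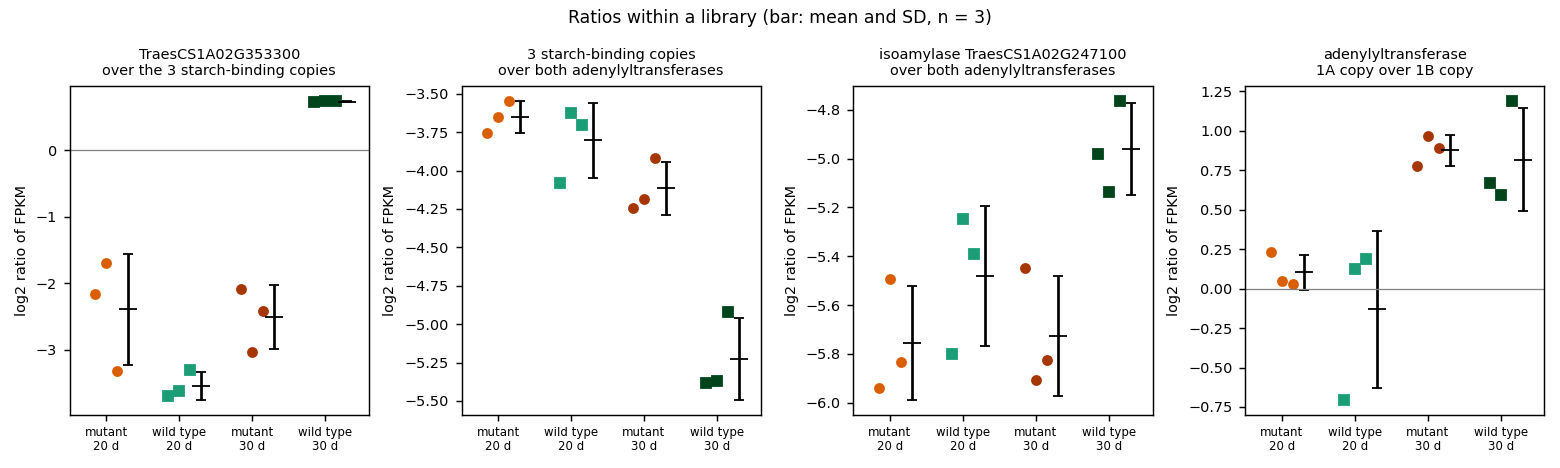
Log2 ratios of FPKM within each library, with a point per library and a bar for the mean and SD (n = 3); the vertical axes differ. TraesCS1A02G353300 is above the starch-binding copies (ratio over 0) in the 3 wild-type libraries at 30 days, and the ratio of adenylyltransferase copies has 1 wild-type library at -0.70 at 20 days.

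The table held 9 other genes with the same enzyme entries. The 1B partner of TraesCS1A02G353300, TraesCS1B02G368500 (1B, 598877339 to 598884411), lies on the opposite strand and was at 2.60 ± 0.673 FPKM in HP20, 1.36 ± 0.512 in WT20, 2.01 ± 0.0369 in HP30 and 4.03 ± 0.512 in WT30. It rose with age in wild type as the 1A copy did (1.32, SE 0.22, adjusted p = 0.000133), but in the mutant it was at 0.18 (adjusted p = 0.493), where the 1A copy fell. The log2 ratio of 1A to 1B went from 0.53 ± 0.13 in HP20 to -0.65 ± 0.38 in HP30, and from 0.75 ± 0.45 in WT20 to 0.16 ± 0.16 in WT30 (permutation test over the 4 groups, adjusted p = 0.00557).

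Another set of starch synthases, TraesCS1A02G137200, TraesCS1B02G155700 and TraesCS1D02G138100, gave no called shift among its copies. Their shares did not pass the same test (adjusted p = 0.382, 0.444 and 0.11). By edgeR and by DESeq2 0 of the 3 genes were called between cultivars at either time or in the interaction, where 1 had an unadjusted p under 0.05 in the interaction and 0 at either time, while limma called 1 at 20 days, 2 at 30 days and 3 in the interaction. In wild type all 3 rose with age, by 0.70, 0.86 and 0.60. In the mutant the 1A and 1B copies rose by 0.52 and 0.46, values that turned to -0.032 and -0.092 with library totals alone and to -0.24 and -0.30 with equal FPKM totals, and were not called there.

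The isoamylase had partners on 1B and 1D. TraesCS1B02G257700 was at 7.42 ± 0.399 FPKM in HP20 and 7.74 ± 0.608 in WT20, and TraesCS1D02G246300 at 3.08 ± 0.213 and 2.84 ± 0.487. Neither was called at 20 days (-0.36, adjusted p = 0.086, and -0.18, adjusted p = 0.564), where the 1A copy fell, although TraesCS1B02G257700 was called lower without HP20 replicate 3 (-0.45, adjusted p = 0.0312). The share of the 1A copy was 29.9% ± 1.81 in HP20 and 43.0% ± 2.72 in WT20, and 32.7% ± 0.736 in HP30 and 36.9% ± 1.78 in WT30 (permutation test over the 4 groups, adjusted p = 0.00084). The mutant libraries were thus below the wild-type libraries at both times. A further isoamylase set, TraesCS1A02G125400, TraesCS1B02G143800 and TraesCS1D02G128400, had means of at most 0.315 FPKM in any group and was too low to be tested.

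The wider list of starch enzymes, taken by enzyme number and name, had 34 genes in the table and 20 tested: the 2 adenylyltransferase genes, 8 starch synthases, 3 isoamylases, 6 beta-amylases and 1 alpha-amylase. Granule-bound starch synthase, branching enzyme, pullulanase, starch phosphorylase and the dikinases had 0 genes in the table. Of the 13 tested genes outside the 7, edgeR called 0 at 20 days, where 3 had an unadjusted p under 0.05, DESeq2 called 0 and limma 5. At 30 days 4 were higher and 0 lower, and the medians were 0.06 and then 0.30. All 4 were beta-amylases, which cut maltose from starch chains, with the largest value for TraesCS1D02G218000 (0.94, SE 0.20, adjusted p = 0.00447), at 1.97 ± 0.132 FPKM in HP30 and 1.42 ± 0.0626 in WT30. DESeq2 called the same 4, and without the 3 libraries rich in ribosomal RNA TraesCS1D02G218000 was the 1 called. Both limma fits called 0 of these 4 and instead called 4 others, the alpha-amylase TraesCS1A02G351800 and the synthases TraesCS1B02G155700, TraesCS1B02G368500 and TraesCS1D02G138100, all lower in the mutant (-0.39, -0.56, -0.74 and -0.49 with a pseudocount of 1).

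With age, 6 of these 13 rose and 4 fell in the mutant, and 6 rose and 5 fell in wild type. The beta-amylase TraesCS1A02G147400 fell by 3.05 in the mutant and fell by 3.18 in wild type, to 0.522 FPKM in each. The alpha-amylase TraesCS1A02G351800, an enzyme that cuts within starch chains, rose by 1.04 and 1.19. In the interaction 2 were higher, TraesCS1D02G218000 (1.28) and TraesCS1B02G257700 (0.58, but -0.19 and not called with library totals alone), and TraesCS1B02G368500 was lower (-1.14). Over the whole list of 20 the calls were 0 higher and 3 lower at 20 days, 8 and 1 at 30 days, 6 and 10 over time in the mutant and 7 and 11 in wild type.

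Enzymes that supply the pathway from sucrose, 42 genes in the table and 19 tested, had 0 calls at 20 days by edgeR, with 4 at an unadjusted p under 0.05, and 2 by DESeq2 and 5 by limma. At 30 days 5 were higher in the mutant and 3 lower, with a median of -0.09. The largest was TraesCS1A02G107200, which has the enzyme number of an inorganic pyrophosphatase and no description. Such enzymes split pyrophosphate, and whether this one acts on that released when ADP-glucose is made was not tested. It was at 16.8 ± 0.678 FPKM in HP30 and 3.39 ± 0.302 in WT30 (2.78, SE 0.22, adjusted p = 1.19e-06). It fell with age by 4.81 in wild type and by 1.47 in the mutant (interaction 3.34, adjusted p = 3.13e-06). Its mean was 66.6 ± 21.7 FPKM in HP20 and 80.7 ± 2.68 in WT20, a difference that was not called.

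Genes whose 4 group means were most like those of a member, by Euclidean distance of centred log2(FPKM + 1) means over the 4 groups, were of varied kinds. Those nearest to TraesCS1A02G419600, of 769 described genes, were a long-chain-alcohol oxidase (TraesCS1D02G151500, distance 0.135), a metallothionein (TraesCS1A02G115900, 0.203) and an S-acyltransferase (TraesCS1A02G283200, 0.221). Of the other members TraesCS1B02G119300 was nearest to it, at 0.404, and then the isoamylase TraesCS1A02G247100, at 0.525. The second adenylyltransferase was farther from it, at 0.862, and the remaining starch synthases lay at 0.878 to 1.58. TraesCS1B02G119300 had as its nearest a mitogen-activated protein kinase (TraesCS1A02G402400, 0.135), a phospholipase C (TraesCS1A02G069300, 0.242) and a chlorophyll a-b binding protein (TraesCS1A02G403300, 0.26). The 1 FPKM added in this measure shrinks changes at low levels, and the FPKM were not TMM scaled. From WT20 to WT30 TraesCS1B02G119300 went from 3.12 to 0.109 FPKM and the kinase from 18.5 to 4.01, so a small distance is not a like fold change.

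The genes nearest to TraesCS1A02G353300 were 2 ATP synthase beta subunits, TraesCS1B02G400300 (0.208) and TraesCS1A02G379000 (0.246), and the 40S ribosomal protein S7 (TraesCS1A02G129100, 0.252). The first of these was at 71.3 FPKM in HP20, 48.7 in WT20, 34.1 in HP30 and 70.3 in WT30. On the log2(FPKM + 1) scale the median of all genes tested was 0.23 for mutant against wild type at 20 days and -0.35 at 30 days. Over time it was -0.33 in the mutant and 0.16 in wild type. TraesCS1A02G353300 moved in these same directions, and the part of such a shift in the likeness was not tested. The other 6 members lay at 1.34 to 2.44 from TraesCS1A02G353300. For the isoamylase TraesCS1A02G247100 the nearest were a leucine zipper protein (TraesCS1B02G091500, 0.477) and 2 ethylene-responsive factors (TraesCS1B02G326600, 0.482, and TraesCS1D02G314800, 0.497), so no gene matched it as closely.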

How the data were processed

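Libraries were made from total grain RNA with an Illumina TruSeq kit, per the labels' protocols. Adapters were trimmed with cutadapt 1.9, per the submitters' processing notes; the aligner, counting tool and build were not given in the sources used here. Per the file headers, the authors deposited a whole-number read count and an FPKM value per library; FPKM is 1e-04 where the count is 0 and was set to 0. The incomplete last of 25270 lines was left out. Library totals were recovered from the count to FPKM ratio of 43 non-coding genes with at least 100 counts.

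Genes that reached FPKM 1 in 3 or more libraries were tested with edgeR 4.0.16 (R 4.3.3) on counts, with TMM factors, group means, 12 libraries in a single fit and Benjamini-Hochberg adjustment. An SE is the log2 fold change over the root of the F statistic. Alternatives used limma 3.58.1, DESeq2 1.42.0, other scalings and filters, the replicate block and left-out libraries. Steps were tested on simulated data. The named genes were the 7, all genes with their enzyme entries, the largest call per enzyme of both lists and the 3 nearest patterns of 4 of the 7. Members and lists were chosen with earlier results of these data known. Deviations of same-numbered libraries from their group means had r of -0.13 to 0.35 over 18 pairs, against -0.44 to 0.26 over 36 pairs of unlike number. The highest was that of WT20 and WT30 replicate 1.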

Additional observations from a re-analysis of the deposited data

Results flagged for a closer look

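The change from 20 to 30 days differed between the cultivars, by edgeR's interaction test, for 9 of the 13 tested genes with these enzyme entries. Over all genes tested 24.0% were called. The 9 include all 7 members, which were chosen with earlier results of these data known, so the count is no test of enrichment. The values, mutant minus wild type on the log2 scale, were 4.31 for TraesCS1B02G119300, 2.71 for TraesCS1A02G091500, 1.97 for TraesCS1D02G100100, 1.73 for TraesCS1B02G449700, 1.53 for TraesCS1A02G419600, 1.16 for TraesCS1A02G247100 and -1.77 for TraesCS1A02G353300. Among the other copies they were 0.58 for TraesCS1B02G257700 (-0.19 with library totals alone) and -1.14 for TraesCS1B02G368500. The summed endosperm genes were lower at 30 days in wild type (29852 to 31111 FPKM at 20 days, 4053 to 4171 at 30 days) and overlapped between ages in the mutant (14396 to 24225, then 21644 to 25537), and their part in these values was not tested.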

How the results depend on the processing

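At 20 days the count of called genes among the 7 (3 by edgeR) was 5 with library totals alone, 6 with DESeq2, 1 with the replicate block, 0 with the 6 libraries compared alone and 0 without the 3 libraries rich in ribosomal RNA, an alternative chosen after seeing the data; leaving out each library gave 1 to 7. Over all 5723 genes edgeR called 131, and these alternatives in the same order called 1515, 523, 21 and 2, and 11 to 414 with a library left out. With library totals 1392 of the 1515 were higher in the mutant, while of the 5 members TraesCS1A02G353300 alone was higher. With equal FPKM totals the members called were TraesCS1A02G247100, lower (-0.47), and TraesCS1A02G353300, higher. Of the 3435 calls over all genes with that scaling, 3368 were higher. At pseudocounts of 1 and 0.1 limma called 4 and 3 of the 7, with TraesCS1A02G353300 higher in both. The starch list (3) gave 10, 6, 1 and 0 in that order, and 1 to 8 with a library left out. It gave 10 with equal FPKM totals, and 9 and 7 with limma at pseudocounts of 1 and 0.1. The sucrose list (0) gave 5 with library totals, 11 with equal totals, 2 with DESeq2, 5 and 4 with limma, and 0 to 3 with a library left out. Over all genes equal totals called 3435 and limma 1685 and 1415. The sucrose list gave 17 at 30 days and 17 in the interaction with equal totals, 13 in the interaction with library totals and with either limma fit, and 16 in the mutant over time with either limma fit. Over all genes these fits called 4559, 4664, 3355, 3488 and 3375, and 3602 and 3571. With equal totals 4 of the 7 interactions were called, 3 in the main direction and TraesCS1A02G247100 in the opposite one.

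Directions turned as follows. At 30 days with equal totals, TraesCS1A02G419600 went to -0.29, TraesCS1A02G247100 to -1.06, TraesCS1A02G137200 to -1.05, TraesCS1B02G257700 to -0.88 and TraesCS1D02G246300 to -0.65; TraesCS1A02G247100 was -0.44 with library totals and -0.33 and -0.43 with limma. In the mutant over time TraesCS1A02G137200 was -0.032 with library totals, -0.24 with equal totals and -0.00788 and -0.00413 with limma, and TraesCS1B02G155700 -0.092, -0.30, -0.062 and -0.076. In wild type TraesCS1D02G246300 was 0.25 with equal totals. Interactions with equal totals were -0.22 (TraesCS1A02G419600), -0.012 (TraesCS1B02G449700), -0.60 (TraesCS1A02G247100), -1.18 (TraesCS1B02G257700) and -1.13 (TraesCS1D02G246300); TraesCS1B02G257700 was -0.19 with library totals and -0.15 and -0.19 with limma. These scalings shift all genes together, by a median of -1.14 at 30 days and -1.81 in the interaction with equal totals.

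Of 65 results for single genes, which include those called in neither fit, the replicate block ended 3 calls. These were TraesCS1A02G419600 (-0.71) and TraesCS1B02G119300 (-0.99) at 20 days and TraesCS1A02G247100 in the mutant over time (-0.38). The spread of the isoamylase ratio over the groups was 0.70 to 0.93 with a library left out.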
